A study of Mus musculus with 6 samples.

Results

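The genes described here are 10 targets that the tumor suppressor p53 switches on after DNA damage, namely *Cdkn1a*, *Mdm2*, *Bax*, *Bbc3*, *Pmaip1*, *Ccng1*, *Trp53inp1*, *Sesn2*, *Phlda3* and *Gdf15*. They were picked by name, and all 10 were found among the 55401 gene identifiers counted. The transcripts come from tibias of 8-week-old mice in 2 genotypes, 3 libraries each. Atrx-cKO mice (*Osterix-Cre; Atrx* f/y) carry a floxed *Atrx* allele and an *Osterix-Cre* transgene, in which *Sp7* sequences drive a doxycycline-repressed transactivator that switches on an EGFP/Cre fusion in preosteoblasts. Control mice (*Atrx* f/y) carry the same floxed allele and no Cre. Doxycycline kept Cre off until 3 weeks of age. No library of Cre-positive mice with intact *Atrx* was analysed here, so the transgene and the loss of *Atrx* cannot be told apart. Each library was made from polyadenylated RNA of whole bone, of which preosteoblasts and their descendants are only a share. The labels number the replicates without saying which mouse each came from. The p values set the difference between genotypes against the spread between these libraries.

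ATRX is a chromatin remodeler of the SWI/SNF family that deposits the histone variant H3.3 at repeats and telomeres, and its loss is known to cause replication stress and DNA damage in several dividing cell types. Damaged DNA activates the kinases ATM and ATR, which stabilize p53 by freeing it from MDM2, the ubiquitin ligase that otherwise marks it for destruction. Stabilized p53 binds DNA as a tetramer and raises transcription of genes that stop the cell cycle, repair DNA, limit oxidative stress or trigger apoptosis, and *Mdm2* itself is one of them, which closes a feedback loop. Levels of these target transcripts are therefore a common readout of p53 activity. The question put to the data was whether they differed between Atrx-cKO and control tibias.

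Sites that p53 may bind were looked for in the sequence around the gene starts. Only a short window was searched, so a gene without a match may hold a site elsewhere. A match there need not be the site behind the target status of a gene. The p53 consensus element consists of 2 copies of a 10-base motif separated by a short spacer. RefSeq promoter windows (build GRCm38.p6, 250 bases before to 50 after each start) were at hand for 8 of the 10 genes, all but *Pmaip1* and *Trp53inp1*. The element was read in both orientations, which for this palindromic motif are the same search, with at most 2 mismatches in the 20 bases compared, an intact core in each motif and a spacer of at most 13 bases. It was present for *Cdkn1a* and *Bax*, 2 of 8 genes, and for 2.47% of the 27025 genes in the table. The best match of each is printed 5′ to 3′ on the strand of the gene, with the 10-base motifs in capitals and the spacer in lower case.
Cdkn1a: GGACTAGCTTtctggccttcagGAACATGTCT
Bax: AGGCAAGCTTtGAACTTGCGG
The *Cdkn1a* element begins 73 bases before the start (chr17:29090906-29090937, plus strand), has 0 mismatches and a spacer of 12 bases. The *Bax* element begins 201 bases before the start (chr7:45467079-45467099, minus strand), with 2 mismatches and a spacer of 1 base. A single exact 10-base motif was also present in the windows of *Mdm2* and *Ccng1*, which makes 4 of 8 genes with at least one such motif, against 9.55% of all genes in the table.
Mdm2: GAACTTGCCT
Ccng1: GGGCAAGCCT
The motif of *Mdm2* begins 186 bases before the start (chr10:117710935-117710944, minus strand) and that of *Ccng1* 185 bases before it (chr11:40755462-40755471, minus strand). These matches describe letters in a short window and are not measurements of binding.

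Each library held between 50977777 and 70571655 reads on genes, 42.8% to 43.8% of all reads in the tables. Of 9 osteoblast markers, 0 were at 0 counts in any library. Their summed levels were 117386 to 121378 CPM (counts scaled to library size by the TMM method) in Atrx-cKO and 111056 to 188003 in control tibias. The sums mainly follow 2 collagen genes. In Atrx-cKO replicate 1, *Col1a1* gave 58165 and *Col1a2* 51748 of the 117386 CPM. One library stood apart in muscle signal. Control replicate 3 had a summed level of 11766 CPM over 12 skeletal muscle markers, against 708 to 2511 CPM in the other libraries. The fold changes below that move most with that library are also given without it. Control replicate 1 had the lowest osteoblast sum, 111056 CPM. It also had the highest sum over 8 erythroid markers, 6189 CPM against 2388 to 4850 CPM in the other libraries. *Atrx* itself measured 163 ± 9.54 CPM in Atrx-cKO and 169 ± 4.98 CPM in control tibias (SD, n = 3). That count takes in the whole gene in all cells of the bone, so it does not check the genotypes, whereas *Cartpt*, a neuropeptide gene, was higher in Atrx-cKO by 9.75 on the log2 scale (95% interval 8.0 to 11.50, adjusted p = 0.0191 by edgeR quasi-likelihood with Benjamini-Hochberg correction).

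No difference between Atrx-cKO and control tibias passed the test for any of the 10 p53 targets. At an adjusted p under 0.05, 0 of 10 passed by edgeR quasi-likelihood with Benjamini-Hochberg correction, where 0.0145% of the 20636 genes tested did, and 0 of 10 passed in DESeq2, where 0.157% of 23588 genes did. At an unadjusted p under 0.05 the edgeR count was again 0 of 10, beside 3.64% of all genes. Fold changes were positive for 7 genes and negative for 3, with a median of 0.02 on the log2 scale, beside 0.0050 over all genes tested, of which 51.2% were positive. They reached from -0.26 for *Ccng1* to 0.50 for *Gdf15*. The 95% interval lay between -1 and 1 on the log2 scale for 9 of 10 genes, and for 73.2% of all genes tested. In RNA from whole bone a transcript made in fewer cells and one made at a lower level per cell cannot be told apart, and a change limited to the cells that lost *Atrx* would be diluted by the rest.

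**Figure D1:**
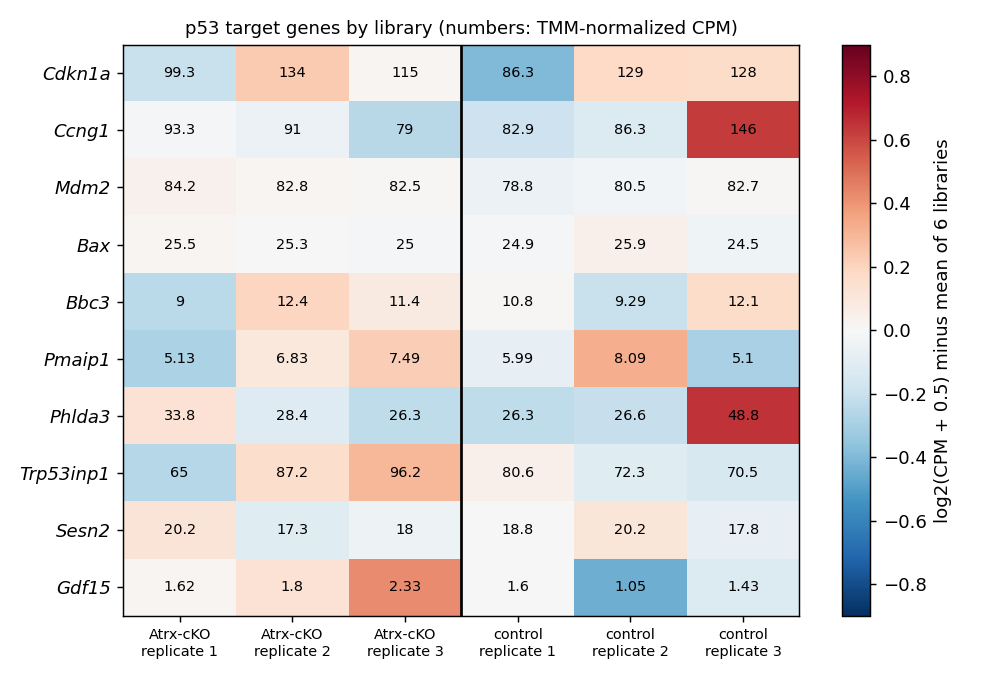
Levels of the 10 p53 target genes in each library. Numbers in the cells are TMM-normalized CPM and colors show the log2 difference (0.5 CPM added) from the mean of the 6 libraries, with Atrx-cKO to the left of the line and control to the right. The strongest colors are *Ccng1* and *Phlda3* in control replicate 3, at 146 and 48.8 CPM, and only *Gdf15* has no overlap across the line, with values from 1.62 to 2.33 CPM on the left and from 1.05 to 1.6 CPM on the right.

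Cell cycle arrest is represented by *Cdkn1a* and *Ccng1*. *Cdkn1a* (ENSMUSG00000023067, chromosome 17 from 29090976 to 29100727 of GRCm38, plus strand) encodes p21, the cyclin-dependent kinase inhibitor through which p53 halts the cycle. It had 99.3, 134 and 115 CPM in Atrx-cKO replicates 1, 2 and 3. The 3 control libraries had 86.3, 129 and 128 CPM. Each genotype had 1 library under 100 CPM and 2 above, and the groups overlapped over most of their range. The means were 116 ± 17.3 and 114 ± 24.3 CPM (SD, n = 3) and the log2 fold change 0.02 (95% interval -0.39 to 0.43), which bounds the ratio of Atrx-cKO to control between 0.766 and 1.35. The low libraries were replicate 1 of each genotype, and these also had the highest summed levels over 13 proliferation genes, 1782 CPM in Atrx-cKO and 1786 CPM in control, against 1187 to 1438 CPM in the other libraries. Whether proliferation had a part in the *Cdkn1a* level was not tested. A provisional gene model, AC167363.2, lies on the opposite strand and shares 273 exon bases (7.68%) with *Cdkn1a*. It had 569 to 922 counts per library, beside 4922 to 8583 for *Cdkn1a*. The libraries are stranded, but whether the counting used strand is not given in the sources used here, and without strand the reads of the shared bases cannot be assigned to either gene.

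*Ccng1* (ENSMUSG00000020326, chromosome 11 from 40748552 to 40755311, minus strand) encodes cyclin G1, which recruits a phosphatase to MDM2 and so adjusts p53 itself. Its levels were 93.3, 91.0 and 79.0 CPM in Atrx-cKO and 82.9, 86.3 and 146 CPM in control libraries. Control replicate 3 was 1.69 times the median of the other 5 libraries, and the other 2 controls lay inside the Atrx-cKO range. A log2 fold change of -0.26 (95% interval -0.75 to 0.24) therefore rested on that library, and without it the value was 0.04. *Phlda3* (ENSMUSG00000041801, chromosome 1 from 135766119 to 135769136, plus strand), whose product competes with the kinase AKT for membrane lipids and so lowers survival signaling, had the same shape. It measured 33.8, 28.4 and 26.3 CPM in Atrx-cKO and 26.3, 26.6 and 48.8 CPM in control libraries, with control replicate 3 at 1.83 times the median of the others. Its log2 fold change was -0.20 (95% interval -0.77 to 0.37) with all libraries and 0.14 without control replicate 3.

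Both high values coincided with the muscle signal of that library. Of the 12 muscle markers, 8 were highest in control replicate 3 and 4 in Atrx-cKO replicate 1, 0 were at 0 counts in any library, and the summed level ran from 708 to 2511 CPM in Atrx-cKO and from 863 to 11766 CPM in control tibias. In a fit with the mean log2 level of these markers as a covariate, the log2 fold changes were -0.08 for *Ccng1* and 0.01 for *Phlda3*. Whether the transcripts came from muscle was not tested. Of 30 other p53 targets, 6 were highest in control replicate 3, fewer than the 10 in control replicate 1 and the 7 in Atrx-cKO replicate 1. *Tigar*, a regulator of glycolysis, was one of the 6, at 17.4 CPM against 7.87 to 12.8 CPM elsewhere, as was *Eda2r*, a receptor of the TNF family, at 2.21 CPM against 0.543 to 2.12 CPM.

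**Figure D2:**
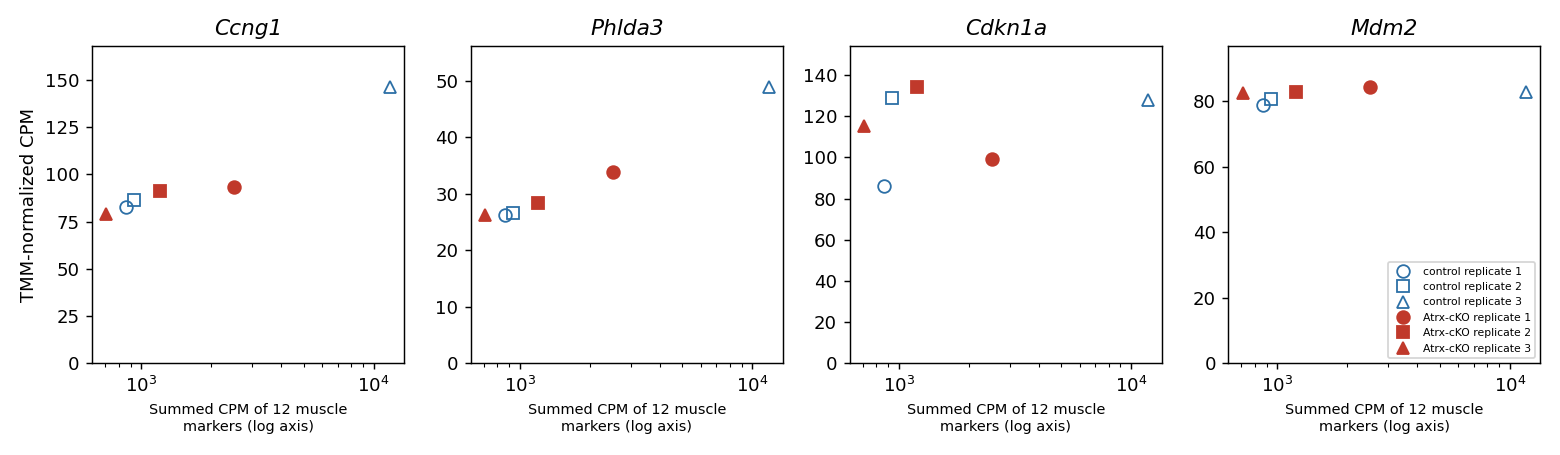
*Ccng1*, *Phlda3*, *Cdkn1a* and *Mdm2* against skeletal muscle signal. Each point is 1 library, the horizontal log axis gives the summed CPM of 12 muscle markers and the vertical axis the TMM-normalized CPM of the gene. Control replicate 3, at 11766 CPM of muscle markers, is the highest point for *Ccng1* (146 CPM) and *Phlda3* (48.8 CPM), while *Cdkn1a* (128 CPM) and *Mdm2* (82.7 CPM) in that library lie within the range of the others.

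*Mdm2* (ENSMUSG00000020184, chromosome 10 from 117688875 to 117710758, minus strand), the feedback inhibitor of p53, was nearly equal in all libraries. Atrx-cKO tibias had 84.2, 82.8 and 82.5 CPM and control tibias 78.8, 80.5 and 82.7 CPM, and the highest control exceeded the lowest Atrx-cKO value by a small margin. Means were 83.2 ± 0.928 and 80.7 ± 1.93 CPM (SD, n = 3). At 0.04, its log2 fold change had a 95% interval from -0.11 to 0.19, a ratio between 0.928 and 1.14. Over the 6 libraries its coefficient of variation was 2.34%, where counting error alone gives 1.46% and the median of all genes tested was 14.5%, and only 0.504% of tested genes had a lower one.

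Among the apoptosis genes, *Bax* (ENSMUSG00000003873, chromosome 7 from 45461697 to 45466898, minus strand) encodes the protein that opens pores in the outer mitochondrial membrane. It varied even less than *Mdm2*. The levels were 25.5, 25.3 and 25.0 CPM in Atrx-cKO and 24.9, 25.9 and 24.5 CPM in control libraries. The control values enclosed all 3 Atrx-cKO values. Its log2 fold change was 0.01 (95% interval -0.17 to 0.19, a ratio between 0.887 and 1.14), and the coefficient of variation of 2.06% was below the 2.62% of counting error. A second annotated gene on the same strand, Gm45808, shares 192 exon bases with *Bax* and had 0 counts in every library.

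*Bbc3* and *Pmaip1* encode PUMA and NOXA, the BH3-only proteins that relieve the block on BAX and its relative BAK. *Bbc3* (ENSMUSG00000002083, chromosome 7 from 16308393 to 16318205, plus strand) had 9.0, 12.4 and 11.4 CPM in Atrx-cKO and 10.8, 9.29 and 12.1 CPM in control libraries. *Pmaip1* (ENSMUSG00000024521, chromosome 18, plus strand) had 5.13, 6.83 and 7.49 CPM in Atrx-cKO and 5.99, 8.09 and 5.10 CPM in control libraries. For each gene the 2 genotypes overlapped throughout. The log2 fold changes were 0.02 for *Bbc3* (95% interval -0.35 to 0.40) and 0.02 for *Pmaip1* (95% interval -0.49 to 0.53). The wider interval of *Pmaip1* goes with a coefficient of variation of 19.2% over the 6 libraries, against 13.1% for *Bbc3*, and both exceed the 5.16% and 4.02% that counting error gives.

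Genes of the wider stress response were *Trp53inp1*, *Sesn2* and *Gdf15*. *Trp53inp1* (ENSMUSG00000028211, chromosome 4 from 11156431 to 11174379, plus strand) encodes a p53-induced nuclear protein with roles in autophagy and apoptosis. Atrx-cKO libraries had 65.0, 87.2 and 96.2 CPM, and control libraries 80.6, 72.3 and 70.5 CPM. Atrx-cKO replicates 2 and 3 lay above every control and replicate 1 lay below every control. Fitted over all 6 libraries, the log2 fold change was 0.15 (95% interval -0.18 to 0.49). It was 0.03 when Atrx-cKO replicate 3 was left out. Without Atrx-cKO replicate 1 it was 0.30, with an unadjusted p of 0.0163 and an adjusted p of 0.999 (edgeR quasi-likelihood, Benjamini-Hochberg).

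*Sesn2* (ENSMUSG00000028893, chromosome 4 from 132492032 to 132510501, minus strand) encodes sestrin 2, a leucine sensor that restrains mTORC1 and limits oxidative stress. Its levels of 20.2, 17.3 and 18.0 CPM in Atrx-cKO and 18.8, 20.2 and 17.8 CPM in control libraries overlapped. Between genotypes the log2 fold change was -0.03 (95% interval -0.27 to 0.21), and the coefficient of variation over the 6 libraries was 6.82%, the next smallest after *Bax* and *Mdm2*. *Sesn2* overlaps another annotated gene outside its exons, Gm12981, which had 5 to 14 counts per library.

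*Gdf15* (ENSMUSG00000038508, chromosome 8 from 70629393 to 70632456, minus strand) encodes a secreted cytokine of the TGF-β superfamily that signals cellular stress and acts on appetite through the brainstem receptor GFRAL. It was the lowest of the 10, with 95, 103 and 137 counts in Atrx-cKO and 91, 70 and 68 counts in control libraries, or 1.62, 1.8 and 2.33 CPM against 1.6, 1.05 and 1.43 CPM. Every Atrx-cKO value lay above every control value, although the closest pair differed by little. It was the single one of the 10 genes without overlap, where 4.3% of all genes tested were separated in this direction. The mean was 1.92 ± 0.364 CPM in Atrx-cKO and 1.36 ± 0.279 CPM in control tibias (SD, n = 3). A log2 fold change of 0.50 (95% interval -0.10 to 1.10) did not pass, with an unadjusted p of 0.0901 and an adjusted p of 0.992 (edgeR quasi-likelihood, Benjamini-Hochberg), and the interval admits ratios from 0.933 to 2.14. Leaving out single libraries gave log2 fold changes from 0.34 to 0.64, with 0.0620 as the lowest unadjusted p. Counting error accounts for a coefficient of variation of 10.3% at this depth, and the observed one was 25.8%.

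**Figure D3:**
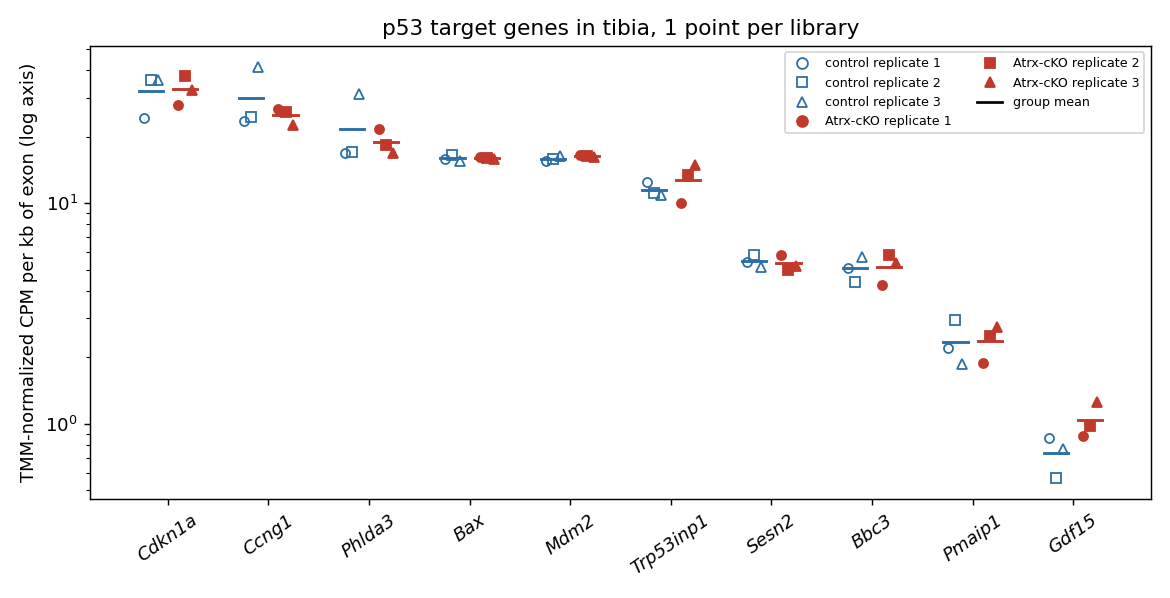
Levels per kilobase of exon of the 10 p53 target genes. The log axis gives TMM-normalized CPM divided by exon length, open blue symbols are the 3 control and filled red symbols the 3 Atrx-cKO libraries, and bars are group means. The order from *Cdkn1a* (control mean 32.2) to *Gdf15* (0.733) spans more than an order of magnitude, and within each gene the colors intermingle except for *Gdf15*.

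Per kilobase of exon, a scale on which genes can be set side by side, the level in control tibias was highest for *Cdkn1a*, at 32.2 ± 6.85 CPM per kb (SD, n = 3). *Ccng1* followed at 29.9 ± 10.1 and *Phlda3* at 21.7 ± 8.29 CPM per kb. Both means take in control replicate 3, the highest library for each, at 41.6 and 31.3 CPM per kb. The lowest control values were 23.6 for *Ccng1* and 16.8 for *Phlda3*. Control values of *Cdkn1a* and *Ccng1* overlapped, and so did those of *Ccng1* and *Phlda3*. *Bax* and *Mdm2*, each at 15.9 CPM per kb, could not be separated from each other but lay below every control value of *Phlda3*. *Bax* shares 12.2% of its exon bases with Gm45808, and whether reads there were counted is not known. The level of *Bax* per kb may therefore be too low, and its place beside *Mdm2* and *Phlda3* is uncertain. *Trp53inp1* came next at 11.5 ± 0.834 CPM per kb, below every value of *Mdm2*. *Sesn2* at 5.45 and *Bbc3* at 5.06 CPM per kb overlapped. *Pmaip1* at 2.34 and *Gdf15* at 0.733 CPM per kb each stood clear of the gene above. The arrest and feedback genes were thus present at a higher level in control bone than the BH3-only genes, as a description of steady-state RNA. *Trp53* itself had 15.3 ± 0.489 CPM per kb, near *Bax* and *Mdm2*.

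The genes that set p53 activity were read next. Of 12 genes for p53, its relatives, kinases and partners, 11 had enough counts to be tested and 0 passed at an adjusted p under 0.05. Fold changes were positive for 8 and negative for 3, with a median of 0.08 on the log2 scale, and the 95% intervals of all 11 lay between -1 and 1. *Trp53* had 70.4, 62.6 and 62.1 CPM in Atrx-cKO and 64.3, 60.9 and 60.8 CPM in control libraries, a log2 fold change of 0.07 (95% interval -0.11 to 0.25). *Mdm4*, the partner of MDM2 that silences p53 at its activation domain, had 219 ± 13 and 202 ± 10.7 CPM (SD, n = 3), a log2 fold change of 0.12 (95% interval -0.09 to 0.32). *Cdkn2a*, whose ARF product sequesters MDM2, was low at 1.27 ± 0.0903 and 1.5 ± 0.157 CPM, with a log2 fold change of -0.23 (95% interval -0.74 to 0.27).

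*Hipk2*, a kinase that phosphorylates p53 to favor its apoptotic targets, was the gene of this list that reached an unadjusted p under 0.05. Atrx-cKO libraries had 56.4, 53.8 and 56.9 CPM and control libraries 72.7, 68.3 and 71.2 CPM. The groups did not overlap, and the spread within each was small. Groups without overlap in this direction, by whatever margin, were found for 4.01% of all genes tested. A log2 fold change of -0.35 (95% interval -0.50 to -0.19) had an unadjusted p of 0.000995 and did not pass over all genes, with an adjusted p of 0.992 by edgeR quasi-likelihood with Benjamini-Hochberg correction and of 0.159 in DESeq2. Its value lay between -0.37 and -0.27 under every alternative run.

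A further 30 established p53 targets were read in the same way. All 30 were tested, 0 passed at an adjusted p under 0.05 and 0 had an unadjusted p under 0.05 in edgeR. They split into 16 with positive and 14 with negative fold changes, with a median of 0.02 on the log2 scale, and for 28 of 30 the 95% interval stayed between -1 and 1. The exceptions were *Perp* and *Eda2r*, both near 1 CPM. The largest values were 0.26 for *Tnfrsf10b* (95% interval -0.20 to 0.72), a death receptor for TRAIL, and -0.46 for *Perp* (95% interval -1.43 to 0.51), a desmosome protein that p53 induces. Single libraries moved both. The value of *Tnfrsf10b* was 0.08 without Atrx-cKO replicate 1 and 0.42 without Atrx-cKO replicate 3, and that of *Perp* was -0.22 without control replicate 3, -0.21 without Atrx-cKO replicate 2 and -0.86 without Atrx-cKO replicate 3. Groups did not overlap for *Psrc1*, which was higher in every Atrx-cKO library, and *Polk*, which was lower, 2 of 30 genes beside 8.31% of all genes, and both are named here after their values were seen. The promoter windows of 23 of the 30 were at hand. A match to the p53 element was present for 4 of these (*Ckap2*, *Rps27l*, *Sesn1* and *Gtse1*), and for 2.47% of all genes with a window. As above, up to 2 mismatches were allowed, and a match is not a measurement of binding.

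**Figure D4:**
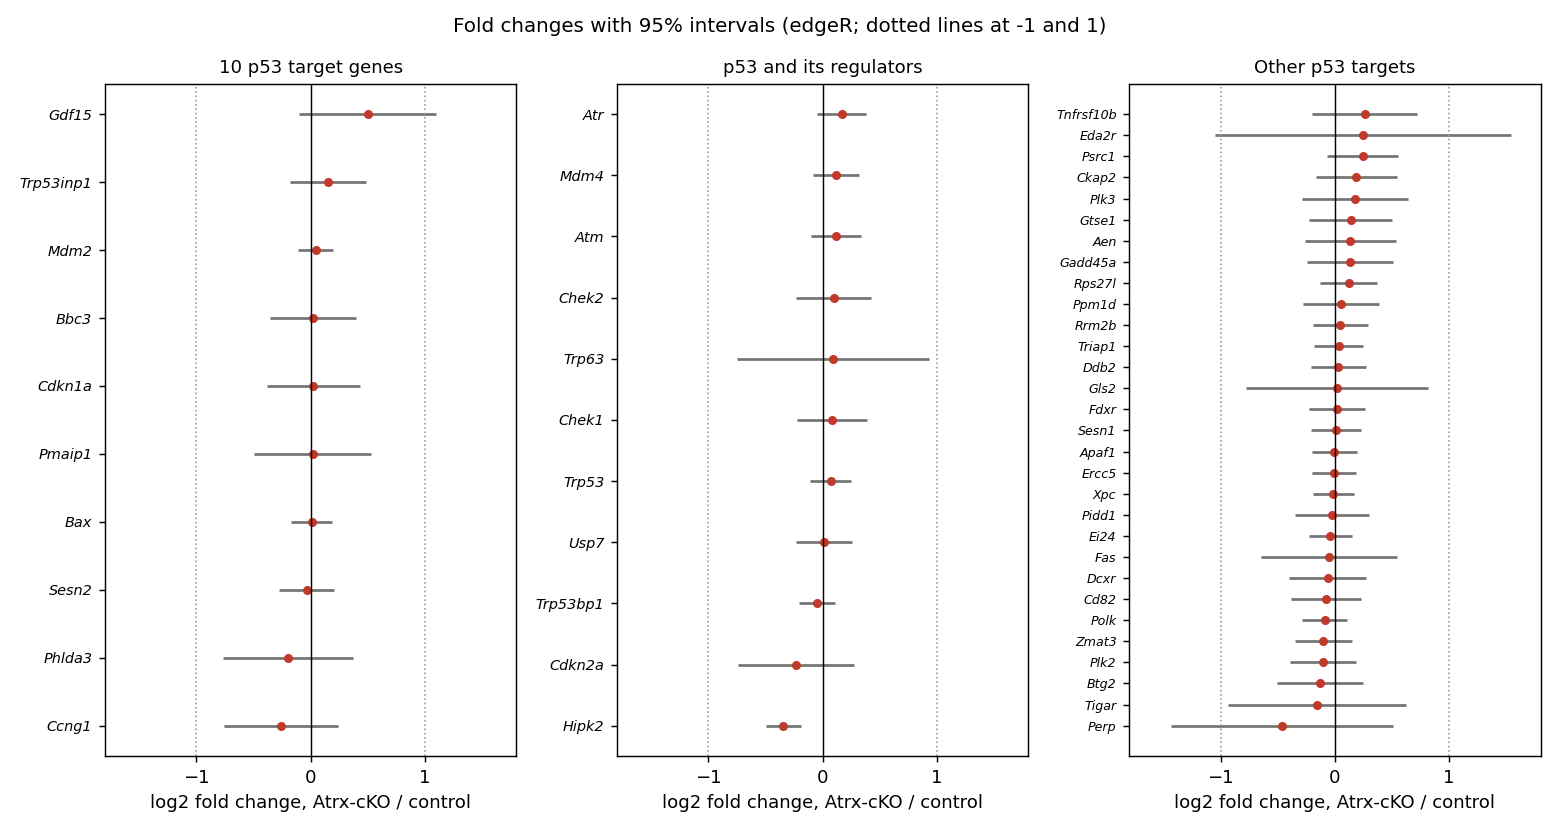
Fold changes of the 10 p53 target genes, of p53 and its regulators and of 30 other p53 targets. Points are edgeR log2 fold changes of Atrx-cKO over control, bars their 95% intervals, and dotted lines mark -1 and 1. The intervals of all but *Hipk2* cross 0, and those of *Gdf15*, *Perp* and *Eda2r* reach past a dotted line.

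Several of the 10 genes also respond to the integrated stress response, in which the translation factor ATF4 induces genes of amino acid supply, and *Sesn2*, *Gdf15*, *Bbc3* and *Pmaip1* are known targets of that route as well. Of 15 genes of that response 14 were tested and 0 passed at an adjusted p under 0.05. Fold changes were positive for 9 and negative for 5, with a median of 0.14 on the log2 scale. Of the 15 genes, 8 were highest in Atrx-cKO replicate 1 and 4 in control replicate 3. One gene was higher and 1 lower at an unadjusted p under 0.05, beside 1.59% and 2.05% of all genes. *Atf5*, a transcription factor of the mitochondrial stress response, had 107, 104 and 82.0 CPM in Atrx-cKO and 72.1, 75.5 and 84.7 CPM in control libraries. Its log2 fold change was 0.33 (95% interval 0.06 to 0.61), and the lowest Atrx-cKO value lay under the highest control. The fold change was 0.26 without Atrx-cKO replicate 1 and 0.44 without Atrx-cKO replicate 3. *Atf3*, an early-response repressor, had 2.5, 3.15 and 2.89 CPM against 3.58, 4.02 and 7.37 CPM. For this gene the log2 fold change was -0.81 (95% interval -1.49 to -0.13) and -0.43 without control replicate 3. *Atf5* had an unadjusted p of 0.0239 and *Atf3* of 0.0256, and the adjusted p of each was 0.992 (edgeR quasi-likelihood, Benjamini-Hochberg).

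The remaining lists set the 10 genes among their relatives. Of 12 other BCL2 family genes 11 were tested and 0 passed, with the widest differences at 0.15 for *Bcl2l1*, which encodes the survival protein BCL-XL, and -0.15 for *Bad*, a BH3-only antagonist of it. *Bcl2l1* depended on control replicate 1, at 75.0 CPM the highest of the 6 libraries, and without it the log2 fold change was 0.42 with an unadjusted p of 0.00151 and an adjusted p of 0.173 (edgeR quasi-likelihood, Benjamini-Hochberg). In the fit without that library, 9.72% of all genes had an unadjusted p under 0.05, against 3.64% with all libraries. Of 6 other cyclin-dependent kinase inhibitors 0 passed, with *Cdkn2b* (p15) at -0.57 and *Cdkn2d* (p19) at 0.24 on the log2 scale. *Cdkn2b* was at -0.25 without control replicate 3 and -0.24 without Atrx-cKO replicate 1, and *Cdkn2d* at 0.02 without Atrx-cKO replicate 1, 0.11 without control replicate 3 and 0.39 without control replicate 1. Of 7 paralogs of the 10 genes 6 were tested and 0 passed. *Trp53inp2*, the autophagy paralog of *Trp53inp1*, had 103, 118 and 119 CPM in Atrx-cKO and 127, 132 and 139 CPM in control libraries. The groups did not overlap, beside 4.01% of all genes tested in this direction. Its log2 fold change was -0.23 (95% interval -0.43 to -0.03), with an unadjusted p of 0.0316 and an adjusted p of 0.992 (edgeR quasi-likelihood, Benjamini-Hochberg). An unadjusted p under 0.05 in this direction was reached by 2.05% of all genes. For *Trp53inp2* the unadjusted edgeR p was 0.167 with total-count scaling and 0.0790 without Atrx-cKO replicate 1.

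Proliferation genes, which fall when p53 halts the cycle, were tested for all 13 on the list. In the edgeR fit with genotype alone 0 passed, and 0 reached an unadjusted p under 0.05. All 13 fold changes were positive, between 0.00 for *Mcm2* and 0.27 for *Aurka*, a mitotic kinase, with a median of 0.11 on the log2 scale. *Bub1*, a kinase of the spindle checkpoint, had the next largest at 0.24 (95% interval -0.16 to 0.65). Without Atrx-cKO replicate 1 these values were 0.06 for *Aurka* and 0.04 for *Bub1*, and without control replicate 1 they were 0.47 and 0.37. The unadjusted edgeR p of *Aurka* was 0.0405 without control replicate 1. With the replicate block it was 0.0173 for *Aurka* and 0.0398 for *Bub1*, each with an adjusted p of 0.974 (Benjamini-Hochberg). The summed level was 1326 to 1782 CPM in Atrx-cKO and 1187 to 1786 CPM in control tibias, so the ranges overlapped. Most marker lists of marrow cells leaned the same way, beside 51.2% positive over all genes tested. Fold changes were positive for 8 of 8 neutrophil genes (median 0.19 on the log2 scale), 7 of 7 B cell genes (median 0.17) and 7 of 8 erythroid genes (median 0.11). They were positive for 4 of 6 macrophage genes (median 0.10), 0 of 9 osteoblast and 0 of 8 osteoclast markers. In each of these lists the summed levels of the genotypes overlapped. All 8 erythroid genes were highest in control replicate 1, and they and all 7 B cell genes were lowest in control replicate 2. Highest in Atrx-cKO replicate 1 were 7 of 8 neutrophil genes, and highest in control replicate 3 were 6 of 8 osteoclast markers. In edgeR 0 of these markers passed at an adjusted p under 0.05, as in DESeq2. At an unadjusted p under 0.05, 1 osteoblast, 1 osteoclast and 1 macrophage marker were lower and 1 macrophage marker was higher. At that threshold 2.05% of all genes tested were lower and 1.59% higher. The part of cell composition in the proliferation values was not tested.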

How the data were processed

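Tibial RNA of 3 Atrx-cKO and 3 control mice was sequenced, and the authors deposited raw counts per gene, 1 table per library, with 55401 identifiers and 5 summary entries that entered neither library sizes nor tests (reads on no feature were 51.6% to 52.4% of each table). The build in the submitters' processing notes is GRCm38 and the tool is DESeq2; aligner and counting program are not given in the sources used here. Groups and replicate numbers came from the sample labels. Genes were named by GENCODE M21, which matched 55141 identifiers.

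Counts were fitted with edgeR 4.0.16 in R 4.3.3 (TMM factors, filterByExpr defaults, glmQLFit and glmQLFTest with genotype alone). Adjusted p values are Benjamini-Hochberg values over the 20636 genes kept by the filter, all 10 p53 targets included, and 95% intervals come from the quasi-likelihood statistic. Levels are CPM after TMM scaling, and coefficients of variation are over the 6 libraries. DESeq2 1.42.0 was the alternative test. The fits were tested on simulated counts. Libraries of one genotype differed by more than sampling noise (chi-square per degree of freedom 15.8 to 137) and were kept as separate replicates.

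The members and gene lists were chosen with earlier results of these data known. Named genes are the 10 targets, *Trp53*, *Mdm4*, *Cdkn2a*, *Atrx*, *Cartpt* and, per further list, genes at an unadjusted p under 0.05 or, where there was none, the 2 largest fold changes; others are named as levels only or as stated. Alternatives were other scalings, filters, DESeq2, a replicate block, a muscle covariate and leaving out each library. Deviations of same-numbered libraries from their group means had correlations of -0.03, 0.06 and -0.07. The labels state no pairing, and these values cannot tell whether the numbers pair mice. At this depth 3 counts correspond to 0.0425 to 0.0588 CPM, for counting error only.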

Additional observations from a re-analysis of the deposited data

How the results depend on the processing

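The count of p53 targets called stayed at 0 of 10 under every alternative run. Over all genes, 3 were called as reported, 10 with no filter, 1 with at least 10 counts in every library, 37 in DESeq2 and 0 to 5 when single libraries were left out (0 when control replicate 2 or either of Atrx-cKO replicates 1 and 2 was omitted, and 5 without control replicate 3); the cause was not tested. With the replicate block 0 genes were called, 0 of them p53 targets, and the blocked fit changed no call on these 10 genes. At an unadjusted p under 0.05, 0 to 1 of the 10 passed when single libraries were left out, the 1 being *Trp53inp1* without Atrx-cKO replicate 1, and 0 passed elsewhere. The share of all genes at that threshold was 3.64% as reported, 9.72% without control replicate 1 and at most 4.73% in the other runs. The median of the 10 ran from -0.02 to 0.08 across left-out libraries and was 0.10 with total-count scaling, which moves the median of all genes from 0.0050 to 0.077. Signs of fold changes of named genes turned in 19 values and were kept in 331, and none of the 19 passed the threshold. *Sesn2* was 0.039 with total counts, and with the muscle covariate *Pmaip1* was -0.10 and *Phlda3* 0.0097. Left-out libraries gave -0.14 to 0.12 for *Cdkn1a*, -0.023 to 0.032 for *Bax*, -0.085 to 0.15 for *Bbc3*, -0.13 to 0.22 for *Pmaip1*, -0.40 to 0.040 for *Ccng1*, -0.10 to 0.017 for *Sesn2*, -0.35 to 0.14 for *Phlda3* and -0.0029 to 0.42 for *Bcl2l1*. Of the 10 genes *Gdf15* had the largest counting error, 10.3% beside an observed coefficient of variation of 25.8%, and its lowest library holds 68 counts.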
